A study of Homo sapiens with 6 samples.

Results

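The genes described here encode 10 proteins of cytoplasmic stress granules, namely G3BP1, G3BP2, CAPRIN1, USP10, UBAP2L, TIA1, TIAL1, PABPC1, ATXN2 and FMR1. They were found by their symbols among the 20522 genes listed for each library, and all 10 were among the 13109 genes with enough counts to be tested. *G3BP2* was chosen by its measured level, which was lower in every si-NEAT1_2 library, so its difference is given as a description without a test, and the other 9 genes were taken for their place in the same granule.

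The libraries are mRNA-seq of K1, a human papillary thyroid carcinoma cell line. They form 2 groups, 3 libraries of K1 cells transfected with a negative control siRNA (NC) and 3 of K1 cells transfected with an siRNA against *NEAT1_2*, the long isoform of the paraspeckle RNA NEAT1 (si-NEAT1_2). A further table gives 1 value per group and has no replicates. The time between transfection and harvest is not given in the sources used here, NEAT1 itself was not analysed here, and all libraries come from 1 cell line. The p-values measure the spread between the 3 libraries of a group.

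Stress granules are condensates of mRNA and protein that form in the cytoplasm when translation initiation stalls, typically after phosphorylation of eIF2α. The paralogs G3BP1 and G3BP2 are RNA-binding scaffold proteins whose contacts with RNA drive the condensation. CAPRIN1 and UBAP2L bind G3BP proteins and promote granules, whereas the deubiquitinase USP10 competes for the same surface and opposes them. TIA1 and TIAL1 are prion-like RNA-binding proteins of the granule, PABPC1 is the cytoplasmic poly(A)-binding protein, ATXN2 binds PABPC1, and FMR1 encodes FMRP, a translational repressor.

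The study centres on NEAT1_2 as a sponge of miR-491, so the seed of this microRNA was searched in the 3′ UTRs of the 10 genes. The mature sequence (RefSeq, GRCh38.p14) is shown with its seed, bases 2 to 8, in capitals. The lines after it give the stretches in which the heptamer complementary to the seed (TCCCCAC, in capitals) was found on the mRNA strand.
hsa-miR-491-5p: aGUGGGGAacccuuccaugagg
G3BP1 3′ UTR: tttttgttatTCCCCACatccagtctt
UBAP2L 3′ UTR: tcctataccaTCCCCACcctgttgtat
The match in *G3BP1* lies at chr5:151811063-151811069 on the plus strand (GRCh38, GENCODE release 29), at bases 6972 to 6978 of a 3′ UTR of 8694 bases. The *G3BP1* transcript length implied by the deposited count and FPKM was only 3271 to 3577 bases. Whether the *G3BP1* transcripts of these cells hold the match was not tested. The match in *UBAP2L* lies at chr1:154270460-154270466 on the plus strand, at bases 165 to 171 of a 3′ UTR of 557 bases. Only the longest principal coding transcript of each gene was searched. In that transcript, the heptamer was not in the 3′ UTR of *G3BP2* (2648 bases) or of the other 7 genes. For *TIAL1* this 3′ UTR had 228 bases in a transcript of 1401 bases, and a longer annotated coding transcript of 5072 bases was not searched. Over all genes tested that had an annotated coding transcript, 16.8% held it, and 30.1% of those with a 3′ UTR of at least 2000 bases.

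The libraries held from 22798631 to 27066025 counts. Of 7 thyroid markers, the transcription factor gene *PAX8* was listed at 113 to 169 FPKM and *FOXE1* at 5.75 to 8.78, *TG*, the thyroglobulin gene, reached 2.99, and *TSHR*, *SLC5A5* and *NKX2-1* stayed at or below 0.08. The 8 markers of blood, endothelial, stromal and liver cells summed to between 1.3 and 2.83 FPKM in NC and between 1.33 and 2.78 in si-NEAT1_2. The libraries differed in how log2 CPM, a count scaled to the library's total, tracked base composition across genes. Over 12581 genes and relative to the mean of the 6 libraries, transcript GC content had a Spearman's rho of -0.26 with the first NC library, -0.66 with the second and -0.35 with the third. With the si-NEAT1_2 libraries it was -0.15, 0.52 and 0.62 in the same order. For transcript length rho was 0.27, 0.49 and 0.35 in NC and 0.13, -0.64 and -0.11 in si-NEAT1_2. Genes are not independent replicates, and these values serve as a description.

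*G3BP2* (chr4:75642782-75724525, minus strand) had 139, 158 and 135 CPM in the NC libraries and 96.2, 71.2 and 84.6 CPM in the si-NEAT1_2 libraries, after TMM scaling. Every si-NEAT1_2 library lay below every NC library, which was also the case for 14.1% of all genes tested. The group means were 144 ± 12.3 CPM and 84.0 ± 12.5 CPM (SD, n = 3 each), 41.7% lower with si-NEAT1_2. The fitted log2 fold change of -0.78 (SE 0.141) was the largest in size of the 10 genes, and 459 of 13109 genes had a lower one. The counts behind these values ranged from 3488 to 3805 in NC and from 1696 to 2364 in si-NEAT1_2. In bulk samples such as these, fewer cells with the transcript and less of it per cell cannot be told apart.

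**Figure D1:**
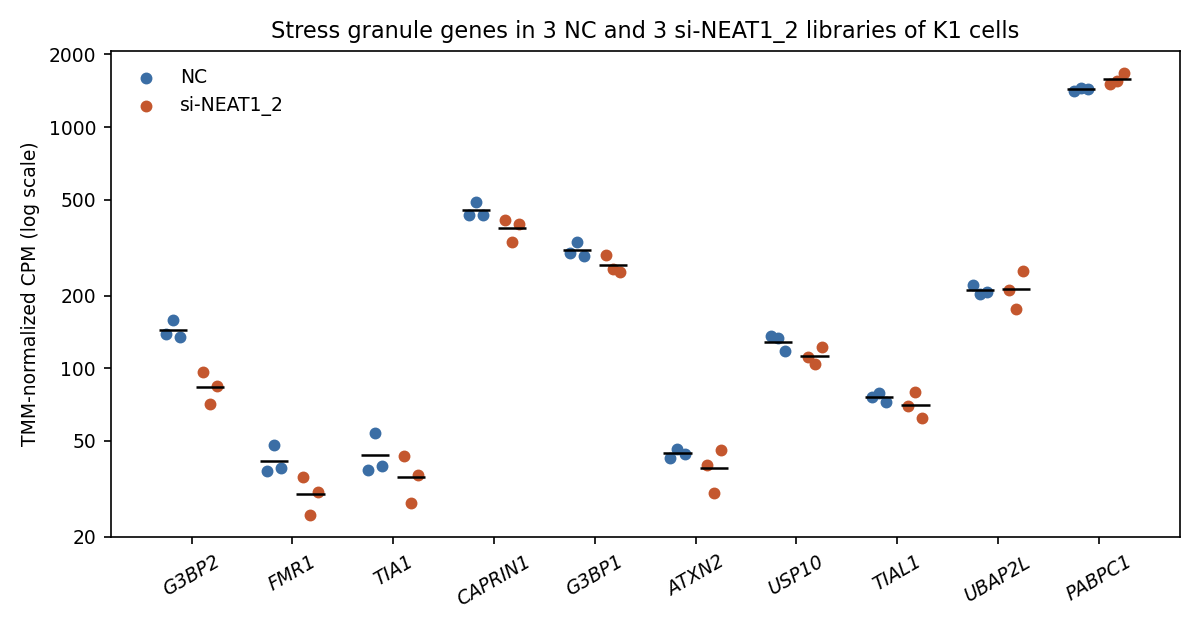
TMM-normalized CPM on a log axis of the 10 stress granule genes, ordered by fold change, with 1 point per library (3 NC, 3 si-NEAT1_2) and a bar at the group mean. The groups are apart for *G3BP2*, *FMR1* and *CAPRIN1*, which are lower with si-NEAT1_2, and for *PABPC1*, which is higher, and they overlap for the other 6.

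Since the libraries differed in GC content and length trends, the size of the *G3BP2* difference was set beside the one that genes of its composition showed. The *G3BP2* transcript used (4883 bases, 41.9% GC) was longer than 73.9% of the transcripts of tested genes, and 23.1% had a lower GC content. A spline in GC content and length held 46.1% of the variance of the log2 fold change across 12581 genes. For *G3BP2* it predicted a log2 fold change of -0.32, which left -0.46 beyond the trend. The SD of this remainder over all genes was 0.297, and 582 of the 12581 genes had a lower one. Among the 5654 genes whose average log2 CPM reached 5, 57 had a lower remainder and 66 a lower log2 fold change than *G3BP2*. Fitting the trend to those 5654 genes alone gave a remainder of -0.48.

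**Figure D2:**
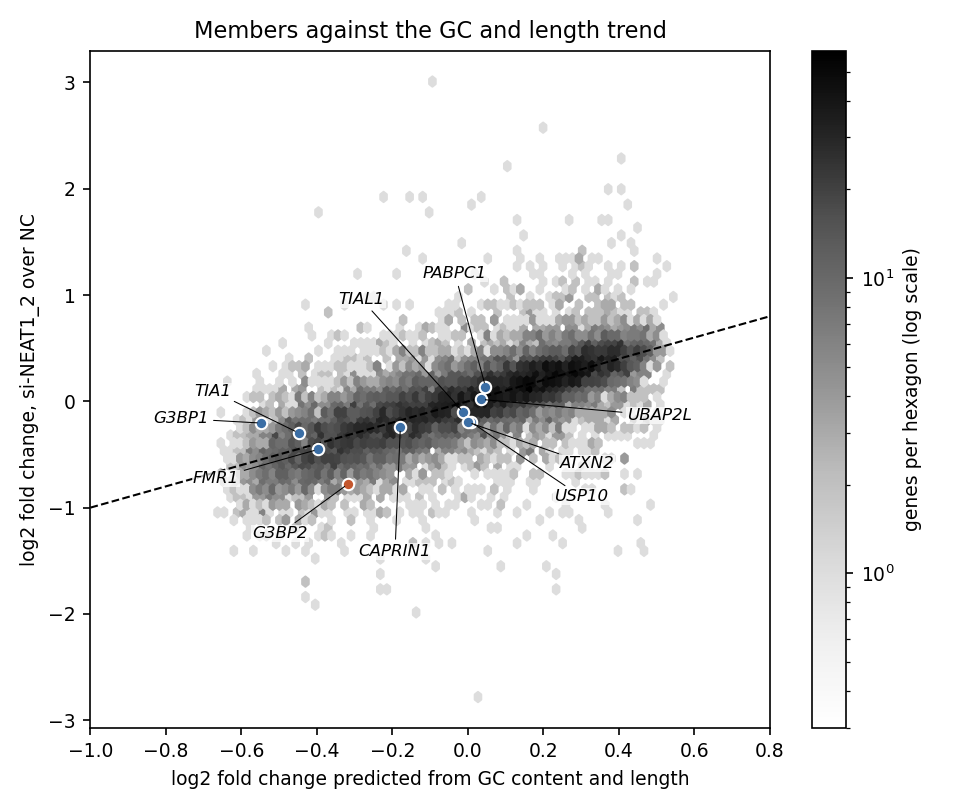
Log2 fold change (si-NEAT1_2 over NC) of 12581 genes against the log2 fold change predicted from GC content and transcript length, with darker hexagons for more genes, the dashed line where both are equal, *G3BP2* in orange and the other 9 genes in blue. *G3BP2* lies 0.46 below the line, whereas *FMR1* and *CAPRIN1* lie near it and *G3BP1* lies above it.

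The same division was made in each library. Relative to the mean of the 6 libraries, log2 CPM of *G3BP2* was 0.34, 0.53 and 0.30 in NC and -0.19, -0.62 and -0.37 in si-NEAT1_2. The part that the trend gave was 0.053, 0.34 and 0.094 in NC and 0.027, -0.37 and -0.14 in si-NEAT1_2, so it was largest in NC replicate 2 and si-NEAT1_2 replicate 2. After its removal, 0.29, 0.19 and 0.21 remained in NC and -0.21, -0.25 and -0.23 in si-NEAT1_2. The SD among the 3 libraries went from 0.121 to 0.053 in NC and from 0.217 to 0.017 in si-NEAT1_2, and the groups did not overlap before or after. Without any 1 library, the remainder beyond the trend stayed between -0.43 and -0.49. *G3BP2* was chosen by these same libraries, so the lack of overlap, the small SD and this range are a description and no independent support. The share of all genes whose groups stay apart after removal of the trend was not computed.

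**Figure D3:**
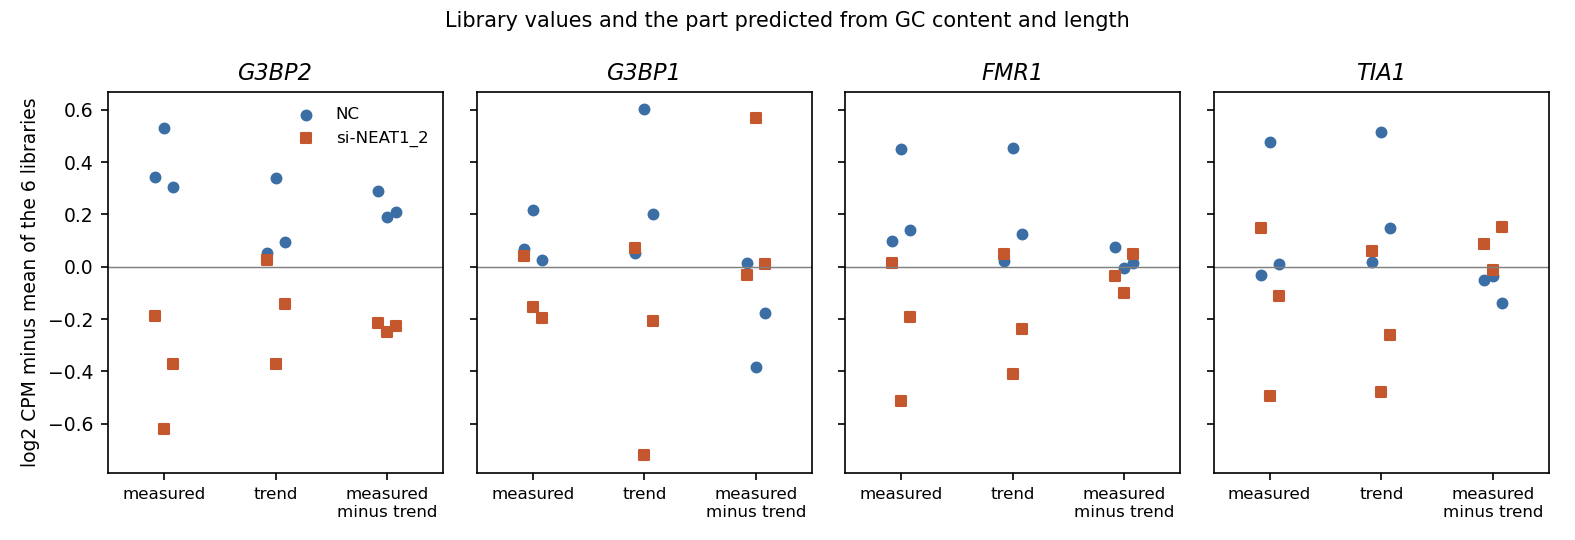
Log2 CPM of 4 genes in each library relative to the mean of the 6 libraries (measured), the part predicted from GC content and length (trend) and what was left (measured minus trend), with blue circles for NC and orange squares for si-NEAT1_2. For *G3BP2* the 3 si-NEAT1_2 libraries draw together between -0.25 and -0.21 after the trend is taken off, for *FMR1* and *TIA1* the spread between libraries shrinks, and for *G3BP1* it grows, with si-NEAT1_2 replicate 2 at 0.57 and NC replicate 2 at -0.38.

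The transcript that stands for a gene bears on this prediction. The length implied by the deposited count and FPKM of *G3BP2* was 2830, 2964 and 2965 bases in NC and 3196, 3422 and 3067 bases in si-NEAT1_2, shorter than the annotated 4883. All si-NEAT1_2 values were above all NC values, on average 1.11-fold, as for 5.79% of the genes with such a value, and in the other direction for 5.37%. *G3BP2* was the only one of the 10 genes whose groups did not overlap in this length. With the annotated coding transcript closest to the implied length (2609 bases, 42.7% GC), the remainder was -0.59. The implied length is computed from count and FPKM, so its shift restates that *G3BP2* differed more in FPKM than in counts. The cause of the shift was not tested. *G3BP2* had 49.7, 55.1 and 46.5 FPKM in NC and 30.7, 19.2 and 27.5 in si-NEAT1_2. The difference on the log2(FPKM + 1) scale was -0.96.

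*G3BP1* (chr5:151771045-151812785, plus strand), the closest relative of *G3BP2*, had 301, 334 and 293 CPM in NC and 296, 259 and 251 CPM in si-NEAT1_2. The groups overlapped, and the log2 fold change was -0.20 (SE 0.125, adjusted p = 0.310 by edgeR's quasi-likelihood test). With GC and length trends removed it was 0.38 (SE 0.156, adjusted p = 0.284 by edgeR) and thus changed sign. That value rests on the annotated transcript of 10240 bases, where the implied length was 3271 to 3577 bases in the 6 libraries, and with the transcript closest to the implied length it was 0.045. No 50-base stretch of the *G3BP2* transcript was found in a transcript of another gene, and the coding sequences of the 2 paralogs were 64.7% identical.

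In FPKM, which can be compared between genes, the ratio of *G3BP2* to *G3BP1* was 0.539, 0.570 and 0.545 in NC and 0.357, 0.263 and 0.370 in si-NEAT1_2. *G3BP2* therefore made up 35.0% to 36.3% of both paralogs in NC and 20.8% to 27.0% in si-NEAT1_2. The 2 together came to 142, 152 and 132 FPKM in NC and 117, 92.1 and 102 FPKM in si-NEAT1_2, again without overlap. The implied length averaged 2920 bases in NC and 3228 in si-NEAT1_2 for *G3BP2*. For *G3BP1* it averaged 3461 and 3383 bases. These lengths restate that the FPKM ratio fell more than a ratio of counts would. The FPKM ratios carry the choice of *G3BP2* and were not tested.

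**Figure D4:**
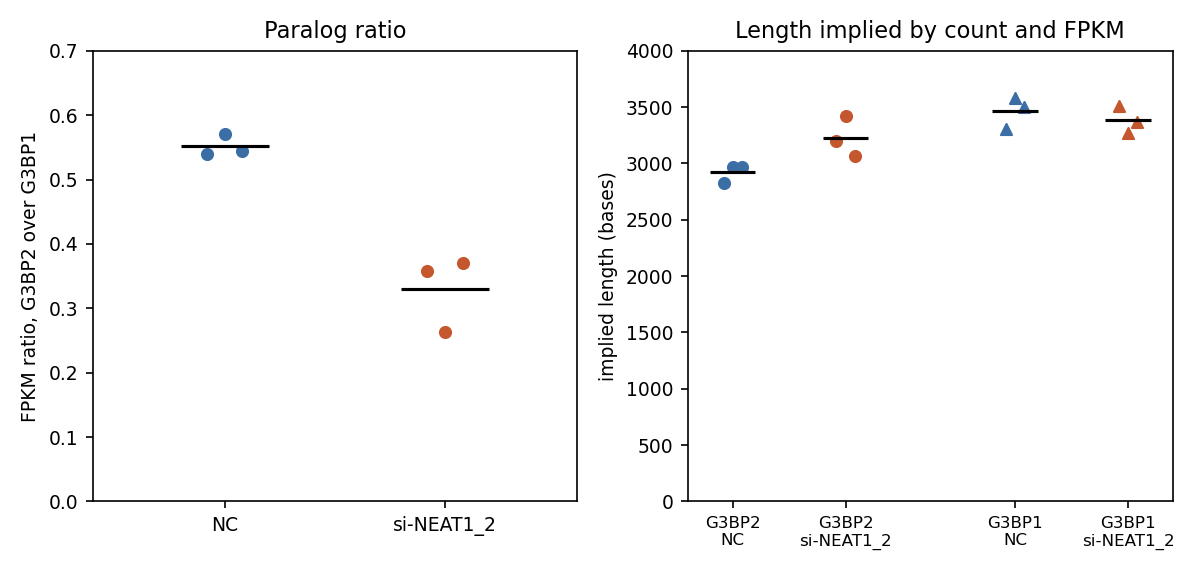
Left, the FPKM ratio of *G3BP2* to *G3BP1* in each library, and right, the transcript length in bases implied by count and FPKM for both paralogs, with points for the 3 libraries of a group and a bar at the mean. The ratio is between 0.539 and 0.570 in NC and at most 0.370 in si-NEAT1_2, and the implied length is set apart between the groups for *G3BP2* and overlaps for *G3BP1*.

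Among the 9 genes other than *G3BP2*, 0 reached a fold change of 2 or more together with an adjusted p under 0.05, and 0% of the 13109 genes were (lowest adjusted p = 0.0659, edgeR). At an unadjusted p under 0.05, 1 of the 9 was lower and 0 higher, against 12.9% of all genes lower and 11.2% higher. Their adjusted p ran from 0.173 to 0.943. Of all 10 genes, 8 had a log2 fold change below 0, with a median of -0.20 against 0.0090 over all genes tested. That count includes *G3BP2*, chosen for its fall, and the median of the other 9 was -0.20 as well. The share of all genes below 0 was not computed, so the count is no result about the 10 genes. With GC and length trends removed, 7 were below 0 and the median was -0.060. DESeq2 called 0 of the 9 as well.

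The 2 G3BP partners and the antagonist differed less than *G3BP2* did. *CAPRIN1* (chr11:34051683-34101156) had 434, 490 and 432 CPM in NC and 413, 335 and 397 CPM in si-NEAT1_2, without overlap, and a log2 fold change of -0.24 (SE 0.131, adjusted p = 0.263, edgeR), or -0.062 (SE 0.069, adjusted p = 0.693, edgeR) with trends removed. *USP10* (chr16:84699978-84779922) had 136, 134 and 118 CPM in NC and 112, 104 and 123 CPM in si-NEAT1_2, where si-NEAT1_2 replicate 3 lay above NC replicate 3. Its log2 fold change was -0.19 (SE 0.124, adjusted p = 0.336, edgeR). *UBAP2L* (chr1:154220179-154271510) had 221, 202 and 208 CPM in NC and 211, 176 and 253 CPM in si-NEAT1_2. The si-NEAT1_2 libraries of *UBAP2L* spanned the NC range on both sides, and the log2 fold change of 0.018 (SE 0.145) changed sign between scalings.

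*TIA1* (chr2:70209444-70248660) was at 38.0, 54.1 and 39.2 CPM in NC and at 43.1, 27.6 and 36.0 CPM in si-NEAT1_2. The highest library was NC replicate 2 and the lowest si-NEAT1_2 replicate 2, the libraries with the largest trend parts for *TIA1*, 0.51 and -0.48. Its log2 fold change of -0.30 (SE 0.194, adjusted p = 0.339, edgeR) went to 0.15 (SE 0.087) with the trends removed. *TIAL1* (chr10:119571802-119597029), its paralog, had 76.3, 78.6 and 72.6 CPM in NC and 69.8, 80.0 and 62.1 CPM in si-NEAT1_2, with both the highest and the lowest value in si-NEAT1_2 and a log2 fold change of -0.10 (SE 0.132). The FPKM ratio of *TIA1* to *TIAL1* was 0.245 to 0.315 in NC and 0.184 to 0.315 in si-NEAT1_2, and so overlapped, unlike that of the G3BP paralogs.

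*PABPC1* was the only gene of the 10 with all si-NEAT1_2 libraries above all NC libraries, a pattern seen in 15.4% of all genes. Its levels were 1410, 1457 and 1443 CPM in NC and 1515, 1550 and 1678 CPM in si-NEAT1_2, a log2 fold change of 0.14 (SE 0.125, adjusted p = 0.494, edgeR). Of the 50-base stretches of its transcript, 12.0% also occur in transcripts of 9 other genes, with *PABPC3* first, and 16.5% of those of *USP10* occur in 4 others that include processed pseudogenes, so part of these counts may have been divided between copies. *ATXN2* (chr12:111443485-111599676), the PABPC1 partner, had 42.5, 46.5 and 44.3 CPM in NC and 39.9, 30.5 and 45.9 CPM in si-NEAT1_2. Only si-NEAT1_2 replicates 1 and 2 were below the NC range, and the log2 fold change was -0.20 (SE 0.161, adjusted p = 0.447, edgeR).

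*FMR1* (chrX:147911951-147951125, plus strand) was the 1 gene with an unadjusted p under 0.05. It had 37.5, 47.9 and 38.6 CPM in NC and 35.4, 24.6 and 30.7 CPM in si-NEAT1_2, without overlap. The log2 fold change was -0.45 (SE 0.169, adjusted p = 0.173, edgeR). The trend of its transcript (4308 bases, 38.0% GC) predicted -0.40, and -0.058 (SE 0.087, adjusted p = 0.783, edgeR) was left with trends removed. *G3BP2*, with a predicted -0.32, kept -0.46.

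**Figure D5:**
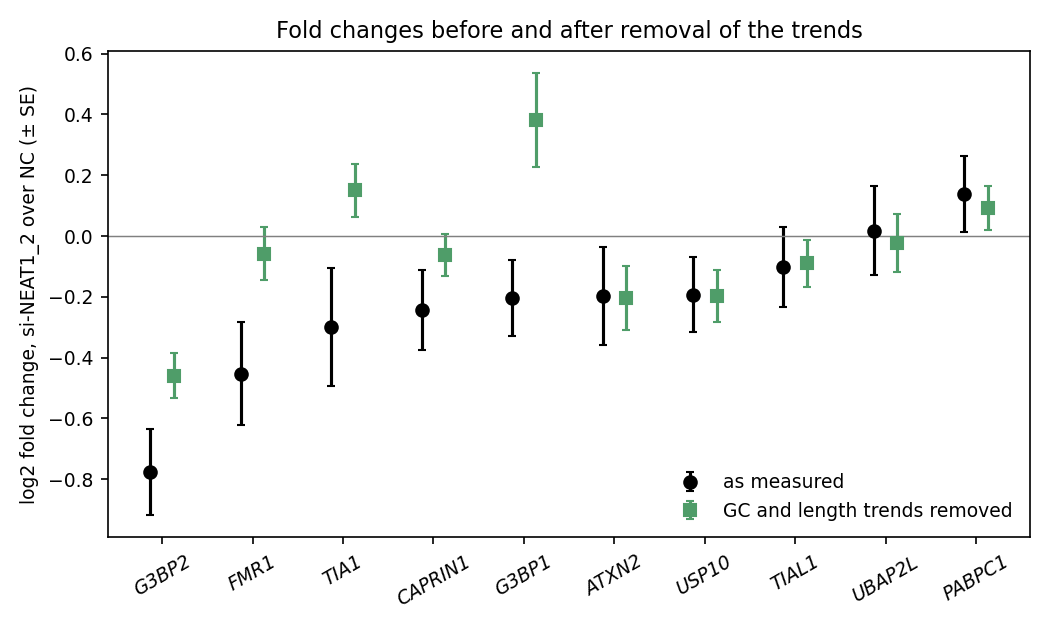
Log2 fold change (si-NEAT1_2 over NC) with its SE for the 10 genes, as measured (black circles) and with GC and length trends removed from each library (green squares). *G3BP2* stays lowest at -0.78 and -0.46, while *FMR1* moves from -0.45 to -0.058 and *G3BP1* and *TIA1* cross 0.

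With trends removed from all libraries, the log2 fold change of *G3BP2* was -0.46 (SE 0.074), and the other 9 genes ranged from -0.20 for *ATXN2* to 0.38 for *G3BP1*. At an unadjusted p under 0.05, 1 of these 9 was lower (*USP10*, adjusted p = 0.305, edgeR) and 1 higher (*G3BP1*, adjusted p = 0.284, edgeR), against 8.02% of all genes lower and 7.72% higher in that fit. The median over the 10 genes was -0.060. Leaving out each library in turn kept *G3BP2* between -0.48 and -0.42 in this fit, which is likewise a description.

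Ordered by mean FPKM in NC, *PABPC1* stood first with 539 ± 12.2, followed by *CAPRIN1* with 118 ± 10.4, *UBAP2L* with 93.4 ± 1.70 and *G3BP1* with 91.4 ± 5.72 (SD, n = 3). *G3BP2* was 5th with 50.4 ± 4.37, before *USP10* with 47.6 ± 4.45 and *TIAL1* with 45.1 ± 2.57. *ATXN2* with 18.1 ± 1.59, *TIA1* with 12.2 ± 2.37 and *FMR1* with 11.2 ± 2.4 closed the order. The ranges of the neighbours *UBAP2L* and *G3BP1*, *G3BP2* and *USP10*, *USP10* and *TIAL1*, and *TIA1* and *FMR1* overlapped. In si-NEAT1_2 *G3BP2* was 7th with 25.8 ± 5.92 FPKM, below every library of *TIAL1* (39.3 ± 4.32) and *USP10* (38.7 ± 4.24), and the other ranks down to the 4th and from the 8th were as in NC.

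Library codes in the labels (L2, L3 and L4) allowed 2 comparisons within a code. In L2, with NC replicates 2 and 3 and si-NEAT1_2 replicate 2, log2 CPM of *G3BP2* differed by -1.04, and in L3, with NC replicate 1 and si-NEAT1_2 replicate 3, by -0.71. GC and length trends were not removed here. L2 held the libraries with the largest trend parts for *G3BP2*, NC replicate 2 (0.34) and si-NEAT1_2 replicate 2 (-0.37). L4 held 1 si-NEAT1_2 library and gave no comparison. *FMR1* differed by -0.81 in L2 and by -0.29 in L3, and *CAPRIN1* by -0.46 and -0.13. *ATXN2* (-0.57 and 0.11), *UBAP2L* (-0.22 and 0.19) and *TIAL1* (0.084 and -0.30) changed direction between the codes, and the other genes did not.

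The deposited group table gave a smaller difference for *G3BP2*, 30.8 FPKM in NC and 27.4 in si-NEAT1_2, as the authors' values without replicates. For all 10 genes its NC value lay below every NC library, and for 8 its si-NEAT1_2 value lay below every si-NEAT1_2 library. Its total counts, 17678761 for NC and 19579897 for si-NEAT1_2, were lower than those of any library, so the table does not hold the means of these libraries. In it *G3BP1* stood at 60.9 and 46.8 FPKM and *PABPC1* at 205 and 152, the latter in the opposite direction to the libraries. The log2 FPKM ratio of si-NEAT1_2 to NC was -0.17 for *G3BP2* and -0.38 for *G3BP1*. *G3BP1* thus fell more than *G3BP2*, opposite to the libraries, and the largest fall was that of *FMR1* (-0.52). The FPKM in the group table was lower in si-NEAT1_2 for 9 of the 10 genes, *UBAP2L* being the other. Shares over all genes of the group table were not computed, so these counts are no result about the 10 genes.

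The lists that follow are read against the shares over all genes tested, 12.9% lower and 11.2% higher as measured, and 8.02% lower and 7.72% higher with trends removed. Among 20 other stress granule proteins, 6 were lower and 0 higher at an unadjusted p under 0.05, with a median log2 fold change of -0.28, and 0 had an adjusted p under 0.05 (edgeR). With trends removed, 3 were lower and 1 higher, and the median was -0.11. The RNA-binding protein gene *LARP4* differed by -0.59 on the log2 scale (adjusted p = 0.170, edgeR), or by -0.033 with trends removed. *IGF2BP3*, an oncofetal mRNA-binding protein gene, was at 24.6, 38.3 and 25.5 FPKM in NC and 23.8, 10.6 and 15.9 in si-NEAT1_2, with -0.81 (adjusted p = 0.170, edgeR) and -0.49 with trends removed. Of the paralogs of the 10 genes, *FXR1*, the relative of *FMR1*, had -0.58 (adjusted p = 0.170, edgeR) and 0.0011 with trends removed. *FXR2*, *ATXN2L*, *UBAP2* and *PABPC4* had log2 fold changes of 0.023, 0.031, -0.15 and 0.11 and adjusted p of at least 0.537 (edgeR). With trends removed, their log2 fold changes were -0.19, -0.14, -0.17 and -0.010, so that *FXR2*, *ATXN2L* and *PABPC4* changed sign.

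Granule assembly starts from the arrest of initiation. Of 14 genes for eIF2 kinases, eIF2 and eIF2B subunits and the eIF2α phosphatase, 2 were lower and 1 higher at an unadjusted p under 0.05, with a median of -0.077, near the 12.9% and 11.2% of all genes. With trends removed, 1 was lower and 1 higher, and the median was 0.047. *EIF2AK4*, which encodes the amino acid sensing kinase GCN2, had a log2 fold change of -0.39 and *EIF2B4*, an eIF2B subunit gene, 0.41, or -0.23 and 0.12 with trends removed. Of 14 cap-binding and scanning factors, 5 were lower and 1 higher, with a median of -0.059, against 12.9% and 11.2% of all genes. With trends removed, 2 were lower and 2 higher, against 8.02% and 7.72%, and the median changed sign to 0.027. *EIF3D* was at 133, 124 and 133 FPKM in NC and 155, 173 and 166 in si-NEAT1_2, a log2 fold change of 0.41, or 0.22 with trends removed. *EIF5*, which stimulates GTP hydrolysis on eIF2, had -0.41, or -0.016 with trends removed. The adjusted p of these 4 genes were 0.172, 0.181, 0.170 and 0.170 (edgeR).

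Processing bodies are related granules of mRNA decay. Of 15 P-body genes, 4 were lower and 0 higher at an unadjusted p under 0.05, with a median of -0.16, against 12.9% and 11.2% of all genes. With trends removed, 1 was lower and 0 higher, against 8.02% and 7.72%, and the median was -0.033. The 5′ to 3′ exonuclease gene *XRN1* was at 2.37, 3.62 and 2.97 FPKM in NC and 2.12, 1.26 and 1.5 in si-NEAT1_2, with -0.89 (adjusted p = 0.170, edgeR) and -0.34 with trends removed. *DDX6*, an RNA helicase gene, had -0.48 (adjusted p = 0.170, edgeR) and -0.040. Of 10 genes for granule clearance, 0 were lower and 1 higher, with a median of 0.029, near the 11.2% of all genes that were higher. With trends removed, 0 were lower and 0 higher, and the median was -0.00098. The ubiquitin ligase gene *TRIM21* had 0.38 (adjusted p = 0.173, edgeR) and the autophagy kinase gene *ULK2* -0.43 (adjusted p = 0.301, edgeR), or 0.20 and -0.23 with trends removed.

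The genes most like *G3BP2* over the 6 libraries were found by the root mean square difference of centred log2 CPM among 5653 genes whose average log2 CPM reached 5. *THBS1*, which encodes the matrix glycoprotein thrombospondin 1, came first with 0.0749, at 1980, 2387 and 2012 CPM in NC and 1495, 1128 and 1425 CPM in si-NEAT1_2. *UBE3A*, a ubiquitin ligase gene, followed with 0.0849, *ZNF664*, a zinc finger protein gene, with 0.0907 and *TBC1D9*, a TBC domain protein gene, with 0.0910. The log2 fold changes of these 4 genes were -0.66, -0.63, -0.65 and -0.65, each smaller in size than that of *G3BP2*. GC and length trends were not removed for this comparison. The transcripts of the 4 genes had 45.6%, 39.5%, 48.0% and 46.4% GC and 7775, 9131, 5108 and 5306 bases. The medians over all genes tested were 48.8% and 3229 bases. Whether the likeness holds without the trends was not tested.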

How the data were processed

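Samples were grouped by their labels into NC and si-NEAT1_2, and the members and gene lists were chosen with earlier results of these data known. According to the study's methods, mRNA was enriched, TopHat2 aligned the reads and RSEM estimated expression, while the submitters' processing notes name fastp 0.18.0, Bowtie2 2.2.8, HISAT2, StringTie 1.3.1 and GRCh38. The deposited expected counts are estimates per gene, not normalized. The authors also deposited FPKM, in which transcript length and library size are divided out. Every column of values could be mapped. Counting error and library preparation are both in the spread between libraries.

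Expected counts were rounded, filtered with filterByExpr and normalized by TMM. Groups were compared in R 4.3.3 with edgeR 4.0.16 (quasi-likelihood, Benjamini-Hochberg adjustment). Calls used the thresholds of the study's methods, a 2-fold change or more and an adjusted p under 0.05. The study's figure legends give the same fold change with a p under 0.05. The study reported both upregulated and downregulated mRNAs for this knockdown, whereas the main fit here called 0 genes. Trends were natural splines with 5 degrees of freedom in the GC content and log2 length of the longest principal coding transcript of GENCODE release 29, fitted across genes to the log2 fold change or, as offsets, to each library. Implied length is the count divided by FPKM and by the library total. The SE of a log2 fold change is its size divided by the square root of edgeR's quasi-likelihood F statistic. For *G3BP2* the SE carries the choice of the gene and stands for no test. The alternatives used DESeq2 1.42.0 and limma 3.58.1. Scripts were tested on simulated data. Genes named were the 10 members, their paralogs, the genes with the smallest p in each list (2 per list) and the 5 genes most like *G3BP2*. NEAT1, 1 of the genes most like *G3BP2* and single values of 2 marker genes are not reported here.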

Additional observations from a re-analysis of the deposited data

How the results depend on the processing

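*G3BP2* kept its direction in all 19 alternative settings, with a log2 fold change between -0.99 on the log2(FPKM + 0.1) scale and -0.46 with GC and length trends removed and a replicate block. These settings reuse the libraries by which *G3BP2* was chosen, so its kept direction is a description and no independent support. The study's methods speak of pairs of NC and si-NEAT1_2 cells, whereas the main fit took the libraries as unpaired. Deviations of libraries with the same replicate number had correlations of -0.26, -0.34 and -0.0087. These cannot show whether the libraries were paired, since the libraries also differed in GC and length trends. With the replicate block *G3BP2* was at -0.78 and 0 genes were called. In that fit 0 of the other 9 genes had an unadjusted p under 0.05, also with trends removed. None of the other 9 genes was called in any alternative. Genes called higher and lower, 0 and 0 as reported, numbered 9 and 9 without the filter, 25 and 48 with DESeq2, 0 and 1 without TMM, 0 and 1 on log2(FPKM + 0.1), 1 and 2 with GC and length trends removed, 0 and 1 with the GC trend and 3 and 3 with the length trend removed. When 1 library was omitted they numbered 0 to 32 and 0 to 184, the most without si-NEAT1_2 replicate 1. Members other than *G3BP2* that were lower at an unadjusted p under 0.05, 1 as reported, numbered 3 on both FPKM scales, 0 with the GC trend removed, 2 with the length trend removed, and 0 to 2 when a library was left out (0 without NC replicate 2 or si-NEAT1_2 replicate 3, 2 without si-NEAT1_2 replicate 1), and 1 was higher with GC and length trends removed. *FMR1* had an adjusted p between 0.0620 and 0.833 over its alternatives.

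*UBAP2L* changed sign to -0.038 without TMM, -0.13 on both FPKM scales, -0.043 with library code in the model, -0.022 with GC and length trends removed (-0.030 with the replicate block), -0.077 with the GC trend removed and between -0.12 and 0.13 when a library was left out. *G3BP1* changed sign to 0.38 with GC and length trends removed (0.36 with the replicate block), 0.19 with the GC trend and 0.19 with the length trend removed. *TIA1* did so to 0.15 with both trends removed (0.15 with the replicate block) and 0.14 with the GC trend removed, and *TIAL1* to 0.15 with the GC trend removed. The cause was not tested. With the transcript nearest to the implied length, an alternative chosen after seeing the data, 1 gene was called higher and 3 lower, 1 member was higher (*PABPC1*, 0.23) and 1 lower (*USP10*, -0.24, not *FMR1*) at an unadjusted p under 0.05, and *G3BP1*, *UBAP2L* and *TIA1* were at 0.045, -0.14 and 0.14. Which part of the trends is technical was not tested.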
